A study of Bos taurus with 12 samples.

Results

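The transcripts of the cytosolic ribosomal proteins were followed in mammary gland biopsies of lactating Holstein cows before and during feed restriction. The genes were taken by name from the array annotation (RPL and RPS symbols followed by a number, RPLP0 to RPLP2 and RPSA, without the RPS6 kinases and the names ending in L1 or BP1), so no measured value chose them. They were 79 genes with 251 probes, out of 12787 named genes and 43653 probes on the array. Of these genes, 47 encode large-subunit and 32 small-subunit proteins. No probe on the array was matched to RPL22 or RPS14. The 12 one-colour (Cy3) arrays held 2 samples of each of 6 cows named in the labels. The CONT biopsy was taken on day 0 with free access to a lactation diet, and the REST biopsy on day 6 of an allowance set at 50% of the net energy for lactation that the cow needed. The cows were multiparous and in mid-lactation, the breed was the same in both groups, and every cow served as its own control. CONT always came first, so that feed restriction and the passage of days cannot be told apart. The series description counts 5 cows where the labels name 6, and each cow was therefore also left out in turn.

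Ribosomal proteins assemble with ribosomal RNA into the 40S and 60S subunits of the cytosolic ribosome, which translates nearly all nuclear-encoded messages, the caseins and whey proteins of milk among them. Their messages are abundant in every cell and carry a terminal oligopyrimidine tract (5′ TOP) at the start, through which mTOR signalling is known to control how strongly they are translated. Nutrient supply is known to act on that step, which an array of total RNA does not measure. The mitochondrial ribosome has its own set of proteins, encoded by separate nuclear genes.

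The cytosolic ribosomal protein transcripts were nearly level between CONT and REST. Of 77 genes tested, only RPS4Y1, a copy of the small-subunit protein RPS4, differed between periods, and it was higher in REST (percent called over all genes tested: 16.2%, with 6.95% higher and 9.27% lower). No gene of the family was called lower. The median change was 0.082 on the log2 scale, which is 5.84% higher in REST, beside -0.0090 over the 7932 genes tested. The sign was positive for 64 genes and negative for 13. All 77 changes were smaller than 0.30 in absolute size, as were 79.6% of the changes of all genes. The middle 50% of the family lay between 0.022 and 0.13, against -0.16 to 0.14 for all genes. Over the 77 genes, the 95% intervals ran from -0.33 to 0.50, or a change of -20.4% to 41.1%. These intervals hold for the brightest probe of each gene only, and a dimmer probe of RPL4 changed by 0.51. An unadjusted p under 0.05 was found for 7 of the 77 genes (9.09%), all higher in REST, against 27.7% of all genes. The signals of the 6 CONT and 6 REST samples overlapped for every gene of the family (percent called over all genes tested, groups that do not overlap: 2.28%).

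**Figure D1:**
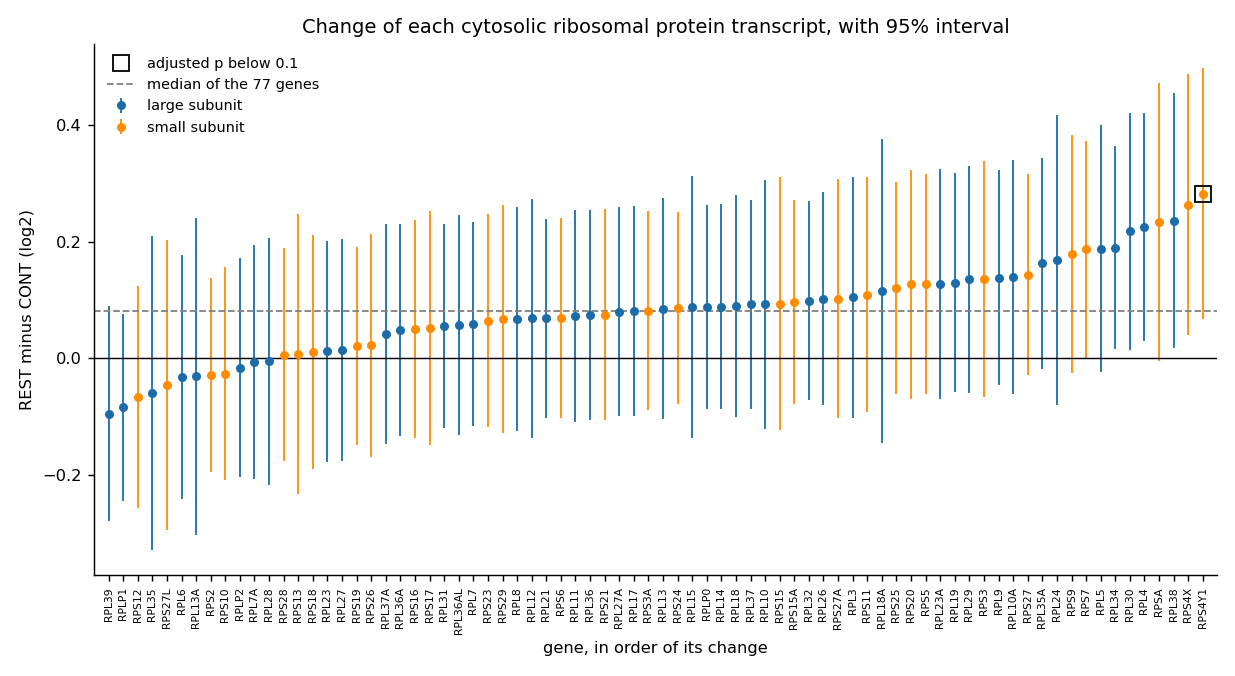
Change of 76 of the 77 tested cytosolic ribosomal protein genes between REST and CONT (y axis, log2), ordered along the x axis by its size. Points are fitted changes of the brightest probe with 95% intervals, coloured by subunit, the dashed line is the family median of 0.082 and the square marks RPS4Y1. Both subunits are spread along the whole order, and every interval stays between -0.33 and 0.50.

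The number of calls depended on the processing, while every gene of the family called in any of the fits was higher in REST. Without the cow as a block, 0 of the 77 genes passed and 0 had an unadjusted p under 0.05 in limma (percent called over all genes tested: 4.41%), while 18 passed, all higher, after a model-based background correction (normexp) with the same 75th percentile shift, which called 17.7% of all probes. That correction raised the family median to 0.17. Cyclic loess raised it to 0.14 with 7 genes of the family called, beside 16.3% of all probes. The RPS4Y1 call was lost whichever cow was left out.

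The small positive shift was seen in some cows and not in others. Within cows 1 to 6, the median change of the 77 genes was 0.18, 0.21, -0.10, 0.066, -0.0031 and 0.17. Cows 1, 2 and 6 had 71, 72 and 72 of the 77 genes higher in REST, cow 4 had 57, cow 5 was split with 38 higher and 39 lower, and cow 3 went the other way with 67 genes lower. Large-subunit and small-subunit genes gave similar medians in each cow, for example 0.18 and 0.18 in cow 1 and -0.096 and -0.10 in cow 3. By slide, which held 2 cows each, the family median was 0.20 on slide 1, -0.024 on slide 2 and 0.070 on slide 3. The direction on slide 2 was thus negative, although its cows 3 and 4 differed in sign.

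Within 1 cow the transcripts changed by similar amounts. The SD of the change across the 77 genes was 0.086 to 0.16 in the 6 cows, where that across all genes tested was 0.35 to 0.46. All 77 were among the brightest 10% of tested probes, and the SD of other genes of like signal was not taken. Over the 6 cows, the changes of 2 genes of the family had a median Pearson r of 0.70 (2926 pairs), and 73.2% of the pairs lay above 0.5. Over all pairs of genes tested, the median r was 0.0083 and 18.5% lay above 0.5. These correlations rest on 6 points, and the genes share the arrays, the scaling and a high signal. RPL18, RPS7, RPL19, RPL11 and RPS9 followed the family median most closely, with r from 0.98 for RPL18 to 0.96 for RPS9. At the other end, RPLP1 (r = -0.090), RPL35 (-0.041) and RPL17 (0.11) did not track it, and 8 genes had r under 0.5.

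**Figure D2:**
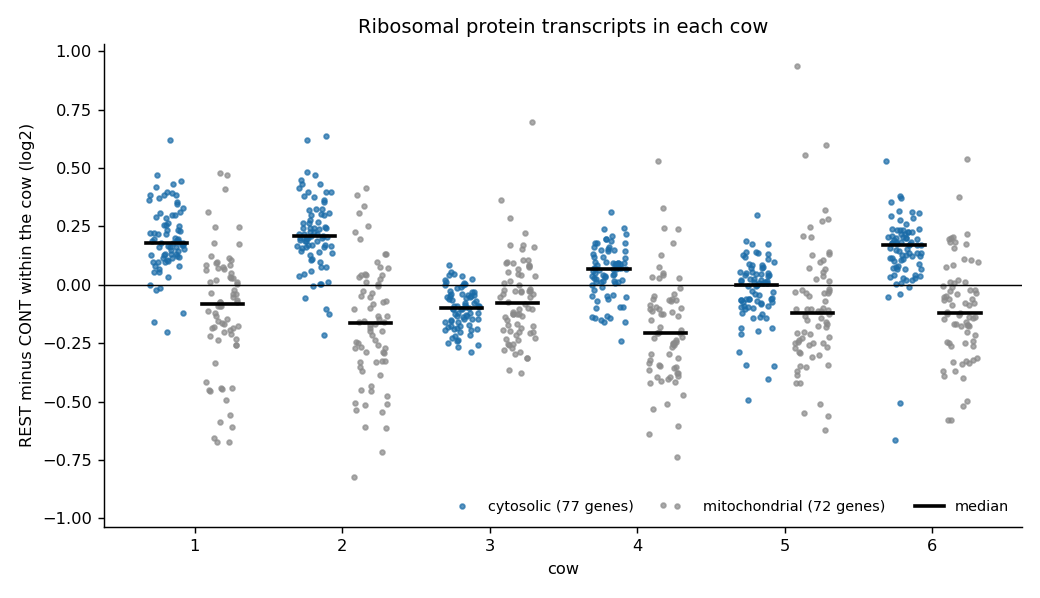
REST minus CONT within each cow (y axis, log2) for the 77 cytosolic (blue) and the 72 mitochondrial (grey) ribosomal protein genes, with 1 point per gene and bars at the medians. The cytosolic genes form a narrow cloud that sits above 0 in cows 1, 2 and 6, around 0 in cow 5 and below 0 in cow 3, whereas the wider mitochondrial cloud has a median below 0 in all 6 cows.

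The level of the family also differed from cow to cow. Expressed as the median deviation of the 77 genes from their own means over 12 arrays, the CONT samples of cows 1 to 6 stood at 0.039, 0.037, -0.099, -0.14, 0.042 and -0.11. The REST samples stood at 0.23, 0.26, -0.20, -0.086, 0.018 and 0.052. The REST samples of cows 1 and 2 were the highest of the 12 and that of cow 3 the lowest. The family spanned 0.19 over the CONT samples and 0.46 over the REST samples. The typical gene followed this pattern, with a median SD between cows of 0.14 in CONT and 0.22 in REST, while over all genes the 2 values were 0.24 and 0.23. This difference in spread was not tested.

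All of these values are relative to the 75th percentile of each array. That percentile was itself higher in REST in 6 of 6 cows, by 0.17 to 0.45 on the log2 scale. Before the shift, the family median was higher in REST in every cow, by 0.065 in cow 3 and by 0.35 to 0.56 in the others. An array does not measure the total RNA per cell, and a change in RNA per cell cannot be told apart here from a change in the number of cells of a type. Slide 3, with cows 5 and 6, was dimmer, with 75th percentiles of 73.2 to 117 units against 252 to 390.0 on the other slides. The family median without slide 3 was 0.083.

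The 2 subunits had similar medians. The 45 large-subunit genes had a median change of 0.085, with 37 positive and 8 negative, and the 32 small-subunit genes a median of 0.078, with 27 positive and 5 negative. Proteins with counterparts in bacterial ribosomes, which form the ancient core around the decoding and peptidyl transferase centres, had a median of 0.091 over 32 genes. The 42 proteins without such counterparts had a median of 0.078. Of these lists 0 of 45, 1 of 32, 0 of 32 and 0 of 42 genes were called in limma, 4, 3, 1 and 5 had an unadjusted p under 0.05, and 0 of 77 were called without the cow as a block. Over all genes tested, 16.2% were called, 27.7% had an unadjusted p under 0.05, and 4.41% were called without the block.

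The acidic stalk of the large subunit, where elongation factors bind, is built from RPLP0, RPLP1 and RPLP2. RPLP0 had a lowest, median and highest signal of 8.47, 8.65 and 8.81 in CONT and of 8.54, 8.70 and 9.02 in REST (change 0.088 ± 0.077 SE, adjusted p = 0.49). RPLP1 had 9.22, 9.39 and 9.46 in CONT and 9.10, 9.29 and 9.42 in REST. It was lower in 5 of 6 cows (-0.084 ± 0.071, adjusted p = 0.47), and its signals in the 2 periods overlapped. RPLP2 had the lowest SD between cows of the family in CONT (0.060, n = 6, from 7.74 to 7.92), and changed by -0.016 ± 0.083. The sign of RPLP1 and RPLP2 turned under other scalings, to 0.13 for RPLP1 with quantile normalization and to 0.094 for RPLP2 with normexp and the 75th percentile shift.

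RPL5 and RPL11 join the 5S ribosomal RNA in a particle that, when ribosome assembly is disturbed, is known to bind MDM2 and stabilise p53. RPL5 ran from 7.31 to 7.51 in CONT (median 7.43) and from 7.37 to 7.95 in REST (median 7.53). Its change was 0.19 ± 0.093 (95% interval -0.023 to 0.40, adjusted p = 0.23), with 4 of 6 cows higher. RPL11 changed by 0.073 ± 0.080 (adjusted p = 0.59). RPS6, the target of the S6 kinases, ran from 8.14 to 8.29 in CONT and from 8.17 to 8.44 in REST and changed by 0.070 ± 0.075 (adjusted p = 0.58). RPS27A, made as a fusion with ubiquitin, changed by 0.10 ± 0.090 (adjusted p = 0.49). FAU, the precursor of RPS30, lies outside the naming rule and changed by 0.11 ± 0.082, which was not called. None of these transcripts was called, and in each the 2 periods overlapped.

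The most positive changes belonged to RPS4Y1, RPS4X, RPL38, RPSA, RPL4 and RPL30. RPS4Y1 had a lowest, median and highest signal of 5.40, 5.53 and 5.69 in CONT and of 5.60, 5.65 and 6.33 in REST. It was higher in 6 of 6 cows (0.28 ± 0.095, 95% interval 0.067 to 0.50, adjusted p = 0.099 in limma with the cow as a block and 0.30 without it), and the REST samples of cows 1 and 2 lay above all the others. In the reference gene table this bovine gene carries a Y-type symbol but is placed on an autosome. RPS4X, the X-linked copy, had 6.84, 7.01 and 7.19 in CONT and 7.04, 7.13 and 7.70 in REST, with 5 of 6 cows higher (0.26 ± 0.099, adjusted p = 0.13). The 2 periods overlapped, cow 3 alone being lower in REST. RPS4X and RPS4Y1 encode closely related proteins, and whether their probes share signal was not tested.

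RPL38, a large-subunit protein known for its part in translating Hox messages, ran from 6.45 to 7.18 in CONT and from 6.66 to 7.48 in REST (0.24 ± 0.096, adjusted p = 0.15). It was higher in 6 of 6 cows, by 0.62 in cow 1 and by 0.011 in cow 3. RPSA, which also serves as a laminin receptor at the cell surface, had the widest spread between cows in CONT, from 3.43 to 4.47 (SD 0.39), and ran from 3.83 to 4.55 in REST (0.23 ± 0.10, adjusted p = 0.19). Cow 5 was lower in REST and the other 5 cows higher. RPL30, which binds its own transcript in yeast, changed by 0.22 ± 0.090 (adjusted p = 0.16), with 5 of 6 cows higher.

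**Figure D3:**
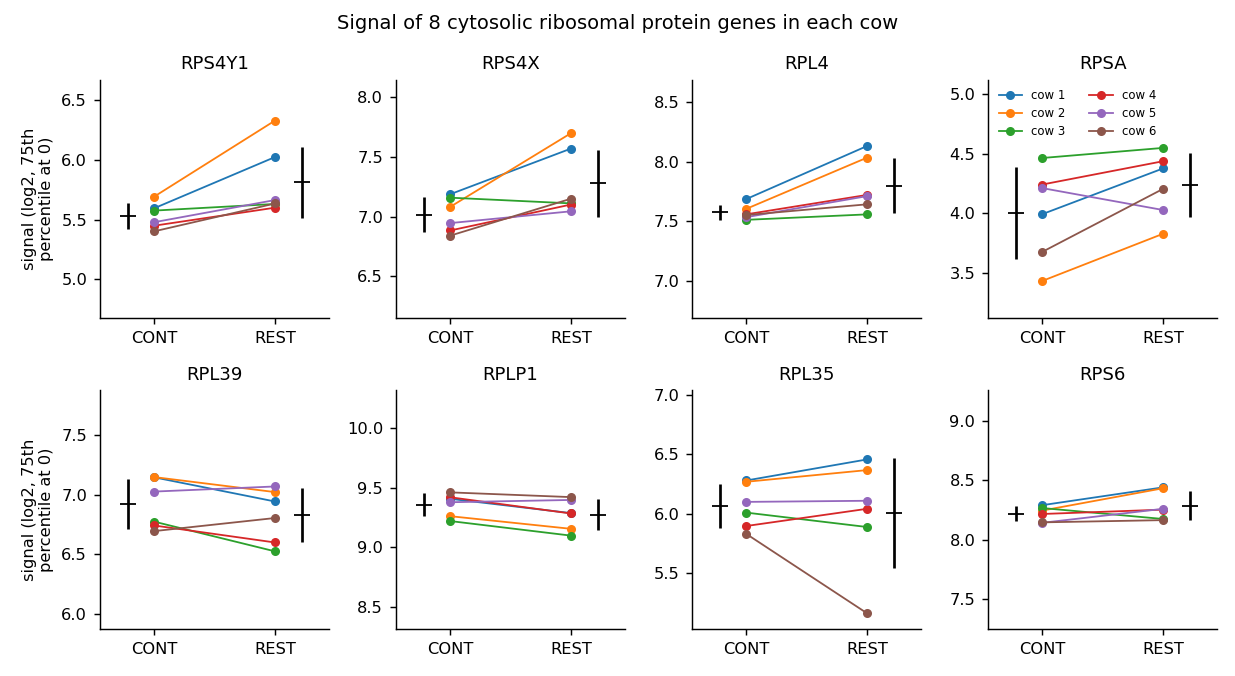
Normalised signal (y axis, log2, 0 at the 75th percentile of the array) of 8 genes in the CONT and REST samples of each cow, with lines joining the samples of a cow and bars giving the mean ± SD of 6 cows. Each panel spans 2 log2 units. In RPS4Y1, RPS4X and RPL4 the REST samples of cows 1 and 2 stand above the rest, in RPL35 the REST sample of cow 6 stands below the rest, and in RPLP1 and RPS6 the lines are nearly flat.

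RPL4, a large-subunit protein that lines the exit tunnel of the nascent chain, was the gene of the family with the most called probes. Its brightest probe, which stands for the gene in the counts above, had a lowest, median and highest signal of 7.51, 7.56 and 7.69 in CONT and of 7.56, 7.72 and 8.13 in REST. It was higher in 6 of 6 cows but was not called (0.22 ± 0.086, adjusted p = 0.13). The other 4 probes of RPL4 were all called higher, with changes of 0.40, 0.43, 0.39 and 0.51 (adjusted p = 0.043, 0.037, 0.037 and 0.067), and each was higher in 6 of 6 cows. The third probe by signal ran from 5.43 to 5.80 in CONT (median 5.59) and from 5.76 to 6.28 in REST (median 6.09), so that the 2 periods overlapped only narrowly. Without the cow as a block, 2 of the 4 probes still passed, at adjusted p = 0.061 and 0.079. Leaving out 1 cow at a time, the 4 called probes, in order of signal, were called in 3, 5, 5 and 3 of 6 cases, with adjusted p of up to 0.12, 0.10, 0.11 and 0.17, and all their changes stayed positive (0.32 to 0.61). The dimmer probes of RPL4 were singled out after their values had been seen.

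Among the most negative changes were those of RPL39, RPLP1, RPS12, RPL35 and RPS27L, at -0.095, -0.084, -0.066, -0.060 and -0.045. None of these 5 was called (adjusted p between 0.47 and 0.82), and their intervals included 0. RPL39, a very short protein at the exit tunnel, had 6.70, 6.90 and 7.15 in CONT and 6.53, 6.87 and 7.07 in REST, with 4 of 6 cows lower. RPL35, which sits near the tunnel exit, had 5.83, 6.06 and 6.28 in CONT and 5.17, 6.08 and 6.46 in REST. The low REST value was that of cow 6, whose change of -0.67 was the largest fall in any cow among the brightest probes of the family. Without cow 6 the change of RPL35 turned to 0.062. The other 2 probes of RPL35 were positive, at 0.20 and 0.20 (adjusted p = 0.27 and 0.25), and also so in cow 6. RPS12 was lower in 4 of 6 cows, with signals from 7.85 to 8.20 in CONT and from 7.85 to 8.21 in REST.

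The family holds several pairs of near copies. RPS27L, a p53-responsive copy of RPS27, had similar group values in both periods, with a lowest, median and highest signal of 3.57, 3.77 and 4.01 in CONT and of 3.51, 3.77 and 4.01 in REST. Within cows, however, its change ran from -0.50 in cow 5 to 0.26 in cow 1 (SD 0.28, against a family median SD of 0.15). RPS27 changed by 0.14 ± 0.076 (adjusted p = 0.26). RPL36AL changed by 0.057 ± 0.083 (adjusted p = 0.69), and RPL36A by 0.048 ± 0.080 (adjusted p = 0.73). RPL3L, known from striated muscle, and RPL10L, known from testis, were not well above background on any of the 12 arrays and are the 2 genes of the family that were not tested. RPL3, the general form, changed by 0.10 ± 0.091 (adjusted p = 0.49) and RPL10 by 0.093 ± 0.094 (adjusted p = 0.56).

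Reading every probe added calls in 1 direction only. Of 246 tested probes of the family, 12 (4.88%) were called and all 12 were higher in REST (percent called over all probes tested: 16.0%). They belonged to 6 genes of 77, namely RPL4, RPL15, RPL17, RPS4X, RPS4Y1 and RPS27 (percent called over all genes tested, any probe: 20.5%). Across probes, 218 changes were positive and 28 negative, with a median of 0.11. No probe of the family was called lower in any of the 20 alternative fits by probe, while the number called higher went from 0, with every probe of the array tested or without cow 2, to 82 with normexp and the 75th percentile shift. The share of all probes called in these fits was 0.889%, 5.38% and 17.7%.

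RPL17 and RPL15 showed what the choice of probe does. RPL17 had 7 probes, all with positive changes, from 0.081 for the brightest to 0.34, and 2 were called (adjusted p = 0.091 and 0.075). RPL15 had 8 probes, from 0.088 for the brightest to 0.32, and 1 was called (adjusted p = 0.090). The 5 probes of RPS4X lay between 0.22 and 0.34, and 3 were called. In RPS27, the called probe, with a change of 0.45, matched a non-coding RefSeq transcript that carries the same symbol, and the 2 probes of the coding transcript were not called. Probes of 1 gene share the RNA of a sample and are not replicates.

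In RPS6 and RPS26 the probes disagreed the most. Of 7 probes of RPS6, 6 were positive, between 0.062 and 0.23, and 1 stood at -0.23 ± 0.36, where 4 of 6 cows were higher and cow 6 changed by -2.51. RPS26 gave 4 probes between 0.0031 and 0.074 and 1 at 0.42 ± 0.29, which was dim. Of the 67 genes with more than 1 tested probe, 50 had all probes positive, 3 had all negative and 14 were mixed. In 49 of the 67 genes (73.1%), the brightest probe had a smaller absolute change than the median of the gene's other probes, which was also so for 56.8% of the 3862 genes of the array with more than 1 tested probe. The median change of the brightest probes of the 67 genes was 0.082 and that of the other probes 0.11. With the mean of all probes, 4 of 77 genes were called, RPL4, RPS4X, RPS4Y1 and RPS27, all higher, beside 18.2% of all genes in the same fit.

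**Figure D4:**
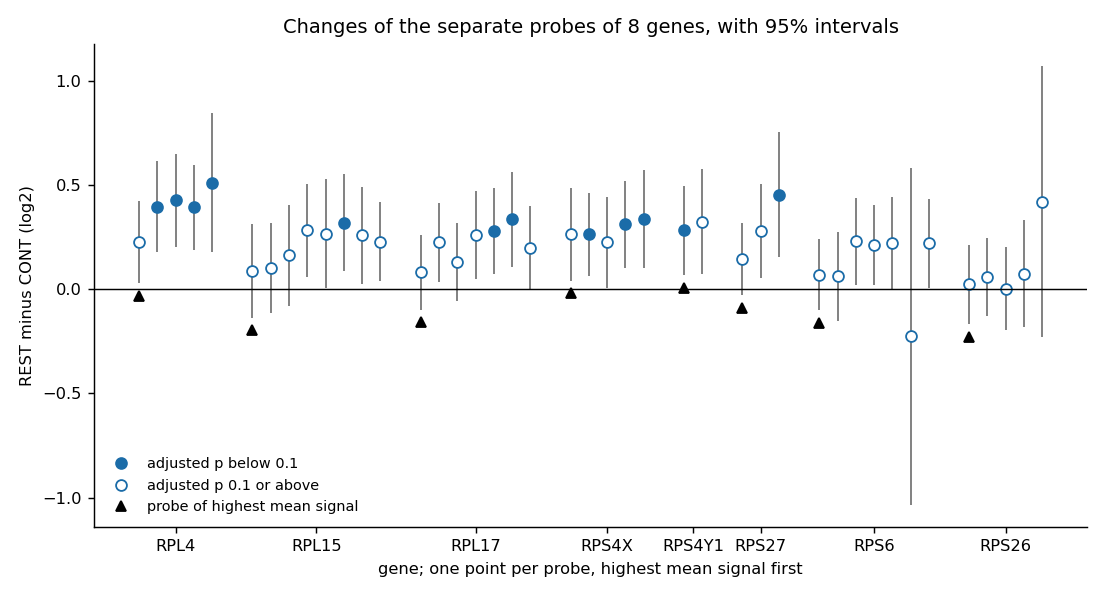
REST minus CONT (y axis, log2) for each tested probe of 8 genes, in order of mean signal within a gene, with 95% intervals. Filled points have an adjusted p below 0.1 and triangles mark the brightest probe, which stands for the gene in counts by gene. The 4 dimmer probes of RPL4 lie at 0.39 to 0.51, above the brightest at 0.22, and the wide interval in RPS6 belongs to the probe with 1 low REST sample.

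Ribosomal protein probes are among the brightest of the array. All 77 brightest probes and 230 of the 246 tested probes were among the 10% of probes with the highest mean signal. The other 1711 probes of that bright set had a median change of -0.068, and 25.1% of them were called, beside 16.0% of all probes and 4.88% of the probes of the family. No spot of the family was saturated (0 on the 12 arrays), and 1 was left out as marked by the scanner software, in the REST sample of cow 6.

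The proteins of the mitochondrial ribosome, which translates the few messages of the mitochondrial genome, were lower in REST in 13 of 72 tested genes and higher in 0, beside 9.27% of all genes called lower. Without the cow as a block, 3 of the 72 were called, beside 4.41% of all genes. Negative changes were found for 62 of the 72 genes, with a median of -0.12. MRPS25 fell by 0.50 on the log2 scale (± 0.082, adjusted p = 0.014), MRPL24 by 0.44 (± 0.077, adjusted p = 0.018) and MRPL16 by 0.42 (± 0.13, adjusted p = 0.078), each lower in 6 of 6 cows. The median was negative in every cow, from -0.079 in cow 3 to -0.21 in cow 4. Of the cytosolic genes 0 of 77 were called lower, and the difference between the 2 families was not tested.

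Among the other genes of the translation apparatus, most changes were positive. Messages that carry a 5′ TOP tract without encoding a ribosomal protein, such as elongation factors, EIF4B, PABPC1 and NPM1, had a median change of 0.21 over 18 genes (FAU among them), and 17 of the 18 were positive. Only HNRNPA1, an RNA-binding protein of splicing, was called, with a rise of 0.39 ± 0.091 (adjusted p = 0.039), beside 16.2% of all genes called. Their medians by cow were 0.48, 0.54, -0.059, 0.26, -0.043 and 0.11, with cows 3 and 5 the lowest, as in the ribosomal proteins. RACK1, which sits on the 40S head, changed by 0.35 ± 0.12 (adjusted p = 0.10), just outside the threshold. Of 42 translation factors, some of which are also in the 5′ TOP list, 1 was called higher, EIF3M (0.37 ± 0.12, adjusted p = 0.085), and 3 lower, EIF3I (-0.63 ± 0.084, adjusted p = 0.0066), EIF4E2 (-0.32 ± 0.079, adjusted p = 0.044) and EIF1AX (-0.26 ± 0.085, adjusted p = 0.094), beside 6.95% of all genes called higher and 9.27% lower. EIF3M and EIF3I are both subunits of the eIF3 complex, which brings the 40S subunit to the message.

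Among the genes that build ribosomes, calls were made in both directions, and their counts stand beside the 16.2% called over all genes. Of 38 ribosome biogenesis factors tested, TSR2, an escort of RPS26, was called higher (0.23 ± 0.076, adjusted p = 0.098) and NOP10, a component of the pseudouridylation particles, lower (-0.34 ± 0.11, adjusted p = 0.096), with a median of 0.014. Of 11 RNA polymerase I genes, only TAF1C, a subunit of its promoter selectivity factor, was called (-0.36 ± 0.090, adjusted p = 0.046). Among 5 tested regulators of ribosomal protein synthesis, MYC, RPS6KB1, EIF4EBP1, DDIT4 and MAF1, 0 were called by limma, 0 without the cow as a block, and 0 had an unadjusted p under 0.05. DDIT4, an inhibitor of mTOR, ranged from -1.04 in cow 6 to 1.42 in cow 2.

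**Figure D5:**
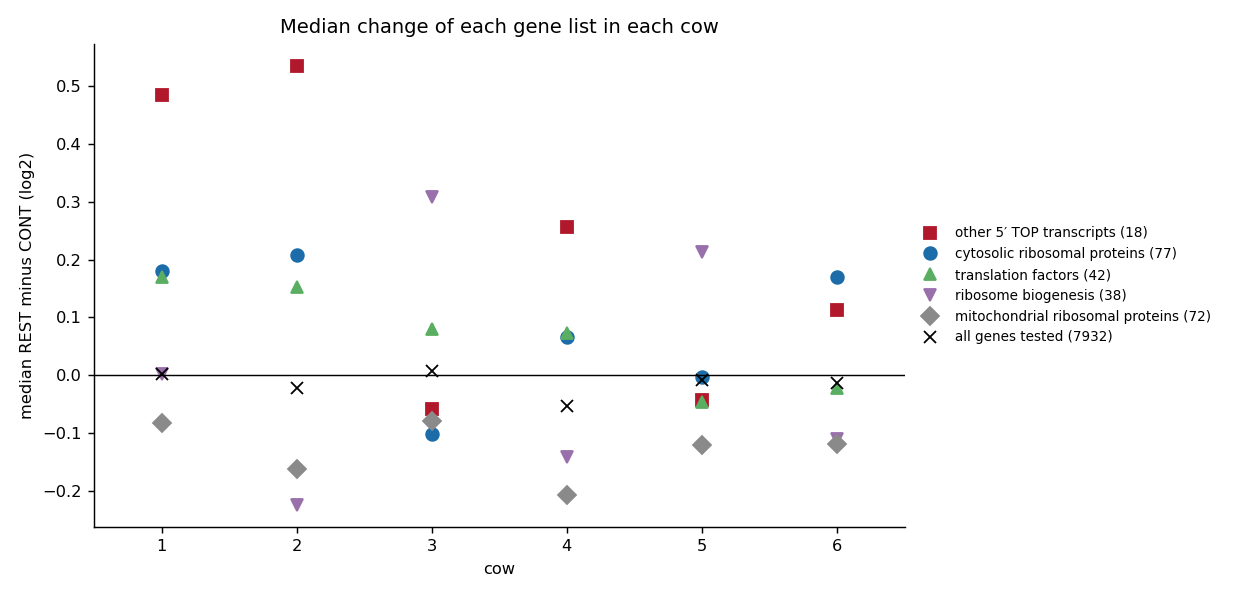
Median REST minus CONT (y axis, log2) of 5 gene lists and of all genes tested in each cow, with the number of tested genes in brackets. The 5′ TOP list and the cytosolic ribosomal proteins are both high in cows 1 and 2 and below 0 in cows 3 and 5, the mitochondrial list is below 0 in every cow, and all genes stay close to 0.

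Some markers of the cell types of the gland also differed between the periods. All 10 luminal and milk protein markers on the array passed the filter on dim probes. KRT8 and KRT18, keratins of luminal cells, rose by 0.72 and 0.52, while CSN3 and CSN1S1, both caseins, fell by 0.28 and 0.26. The summed signal of these 10 markers ran from 12.1 to 12.5 (log2) in CONT and from 11.9 to 12.2 in REST, and it was lower in 6 of 6 cows. Of 6 tested myoepithelial markers, CNN1 fell by 0.53 and ACTA2 by 0.38, while KRT14 (-0.17), MYH11 (0.10), KRT5 (0.25) and OXTR (0.17) were not called and the median of the 6 was -0.035. The sum ran from 6.59 to 7.56 in CONT and from 6.44 to 7.45 in REST, with TP63 not tested. FABP4, the only adipocyte marker of 5 to be tested, fell by 0.35 (7.14 to 7.72 in CONT, 6.61 to 7.18 in REST), and the defining markers PLIN1, LEP and CIDEC were too dim to test. Of 6 endothelial markers, VWF rose by 0.54, while the other 5 were not called and ran from -0.15 (KDR) to 0.32 (PECAM1). The endothelial sum ran from 3.33 to 3.74 in CONT and from 3.58 to 3.84 in REST, and it was higher in 6 of 6 cows, by 0.28 on average. VWF was the brightest of the 6 (mean 2.15 in CONT) and weighs most in the endothelial sum. Of 9 tested leukocyte markers, CD8A rose by 0.45 and CD3E by 0.35. Their sum ran from 4.74 to 4.99 in CONT and from 4.75 to 4.91 in REST, with MS4A1, ITGAM and S100A8 not tested. Of the 6 fibroblast markers 0 were called by limma and 2 had an unadjusted p under 0.05, beside 16.2% and 27.7% of all genes tested, with a sum of 5.10 to 6.00 in CONT and 4.72 to 6.20 in REST. HBA, the only erythrocyte marker of 4 to be tested, was not called and ran from 3.76 to 4.31 in CONT and from 3.36 to 4.35 in REST. Their part in the values of the ribosomal protein genes was not tested.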

How the data were processed

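Total RNA of mammary biopsies was labelled with Cy3 and hybridised to bovine 4 × 44K arrays, 1 array a sample and 4 arrays a slide, with both samples of a cow on the same slide. Per the file headers, the authors extracted spot intensities with Agilent Feature Extraction 11, and the deposited intensity used here is its background-subtracted processed signal on a linear scale. The deposited series table held the same intensities. Symbols came from the RefSeq transcript of a probe (62.2% of probes matched). Positions within chromosomes and probe sequences were not used here.

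The log2 signal minus the 75th percentile of the array was analysed. Probes well above background on every array of at least 1 group (19406) were tested with limma 3.58.1 in R 4.3.3, with the cow as a fixed block and Benjamini-Hochberg adjustment over all of them (threshold 0.1, two-sided). After ± stands the SE of a change. A gene stands by its tested probe of highest mean signal. Same-cow samples deviated together (r = 0.36 to 0.57; -0.33 to 0.13 between cows), the labels naming the animal. Fits were tested on simulated data. The number of arrays limits the precision. Alternatives covered pairing, slide, normalization, background, filter, moderation and each cow left out.

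The genes and lists were chosen with earlier results of these data known. Named genes were the 6 most positive and 6 most negative changes, genes ending in L, stalk, 5S particle and ubiquitin-related genes, RPSA and RPS6, and up to 3 called genes of each other list (more where all of 5 or fewer are given). Some genes that fall under this rule enter the counts only and have no value reported here. RPL3, RPL10, RPL15, RPL17, RPL18, RPL19, RPL36A, RPS7, RPS9, RPS26, RPS27, RACK1 and DDIT4 were named after their values were seen. Python 3.11.15 with pandas 2.3.3 and matplotlib 3.10.9 prepared tables and plots.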

Additional observations from a re-analysis of the deposited data

How the results depend on the processing

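The count of 1 family gene called became 0 without the cow as a block (no replicate block), with the slide as a block, with a median shift, with every probe tested, without slide 3 and at a threshold of 0.05. It became 2 with the cow as a random block, 4 with eBayes trend and robust settings or with the mean of the probes of a gene, 5 with normexp before quantile normalization, 7 with cyclic loess and 18 with normexp before the shift. It was 0 to 1 with 1 cow left out. The share of all probes called (of all genes, with the mean of probes) was 4.31% without the block, 9.79% with the slide as a block, 15.0% with a median shift, 0.889% with every probe tested, 16.5% without slide 3, 7.90% at a threshold of 0.05, 5.38% to 17.0% with 1 cow left out, and 15.3% to 18.3% in the fits that called 2 or more family genes. In the fits with 0 called genes, 0 (no block), 5 (slide), 5 (median shift), 3 (every probe) and 4 (without slide 3) genes had an unadjusted p under 0.05. The family median was 0.082 without the block as well, 0.071 with quantile normalization and 0.17 with normexp before the shift. It was 0.056 to 0.12 with 1 cow left out. With a single slide it ran from -0.024 on slide 2 to 0.20 on slide 1. Its SD between cows (0.12) was larger than the median itself.

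Among the 18 named genes, small negative changes turned positive under some scalings, none being called. With normexp before the shift RPL39 stood at 0.026, RPLP1 at 0.0018, RPS12 at 0.015, RPL35 at 0.0050, RPS27L at 0.020 and RPLP2 at 0.094. With quantile normalization RPLP1 stood at 0.13 and RPS27L at 0.017, and after normexp with quantile normalization these were 0.14 and 0.0099. With cyclic loess RPLP2 stood at 0.040. With 1 cow left out, RPL35 ran from -0.11 to 0.062, RPS27L from -0.11 to 0.045 and RPLP2 from -0.050 to 0.018. In these same fits RPS27A, not called, ran from 0.052 to 0.17, RPLP0 from 0.050 to 0.11, RPL36AL from 0.028 to 0.096 and RPS12 from -0.12 to -0.044. RPS6 ran from 0.046 to 0.10 and RPL11 from 0.048 to 0.11. The causes were not tested. Of the 234 values of named genes under alternatives, 195 kept their direction and their side of the threshold. For every named gene but RPS4Y1 this meant staying uncalled. RPS4Y1, the only named gene called in the main fit, stayed called in 5 alternatives and lost its call in 8.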
